A study of Zea mays with 9 samples.

Results

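The mature miRNAs of the wild-type maize shoot apex were set beside the levels of the precursor transcripts they are cut from, and beside the change of those transcripts in *dcl1-2*, a mutant of *DICER-LIKE1* (*DCL1*). The precursors were all zma-MIR rows of the deposited RNA-seq count table, 141 of its 45498 rows. The mature miRNAs were the 76 distinct sequences behind the 161 entries of the deposited small RNA table, and a sequence that several precursors share was counted once. Both sets fall into 28 miRNA families, and precursor counts were summed per family. All plants were 14-day-old B73 seedlings. The groups were *dcl1-2* leaf primordia P3, wild-type leaf primordia P3, the center zone (CZ) of the shoot apical meristem (SAM) of *dcl1-2* and the wild-type CZ, with 2 RNA-seq libraries each, and the whole wild-type shoot apex with 1 small RNA library. The *dcl1-2* allele, written dc1-2 in the sample labels, had been introgressed into B73 and gives seedlings with a weak phenotype. CZ and P3 cells were captured by laser microdissection and pooled from several apices for each library. Their polyadenylated RNA was amplified before sequencing. No small RNA library of *dcl1-2* was analysed here, and the apex of the small RNA library is a wider tissue than either the CZ or P3.

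In plants, a miRNA gene is transcribed into a long primary transcript with a hairpin, and DCL1 cuts the hairpin, in the nucleus, into a duplex whose mature strand is loaded onto an ARGONAUTE protein such as AGO1. The loaded miRNA then guides cleavage or translational repression of transcripts with a matching site. When DCL1 is impaired, uncut precursors can build up. In the shoot apex, miR166 and the miR390 pathway are known for setting the upper and lower sides of leaves. In Arabidopsis, miR394 and miR171 are known for their roles in the meristem.

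The mature sequences that carried most reads are shown first, since the comparison turns on how few sequences hold the mature signal. Each is printed 5′ to 3′ as deposited, with T in place of U and the seed, bases 2 to 8, in capitals. The letters after a family number name the precursors that share the sequence.
miR166a,b,c,d,g,h,i: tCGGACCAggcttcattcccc
miR166j,k,n: tCGGACCAggcttcaatccct
miR166l,m: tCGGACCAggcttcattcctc
miR319a,b,c,d: tTGGACTGaagggtgctccct
miR159a,b,f,j,k: tTTGGATTgaagggagctctg
miR168a,b: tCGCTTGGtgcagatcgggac
miR167a,b,c,d: tGAAGCTGccagcatgatcta
miR390a,b: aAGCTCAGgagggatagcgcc
miR160a,b,c,d,g: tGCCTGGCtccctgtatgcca
miR171d,e,i,j: tGATTGAGccgtgccaatatc
miR394a,b: tTGGCATTctgtccacctcc
miR162: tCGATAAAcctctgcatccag
miR827: tTAGATGAccatcagcaaaca

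A further set is shown because these sequences split the reads of a family with its leading sequence, or precede it although their precursors were the scarcer ones.
miR171h,k: tGAGCCGAaccaatatcactc
miR396a,b,g: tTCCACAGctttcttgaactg
miR396c,d: tCCACAGGctttcttgaactg
miR172e: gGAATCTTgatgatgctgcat
miR172a,b,c,d: aGAATCTTgatgatgctgcat
miR156a,b,c,d,e,f,g,h,i,l: tGACAGAAgagagtgagcac
miR156k: tGACAGAAgagagcgagcac

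Of the 76 sequences, 41 had at least 10 reads, 8 had 1 to 9 reads and 27 had none. Among the 41, 34 began with U, 35 were 21 nt long, 3 were 20 nt and 3 were 22 nt. They carried 30 different seeds, none of which was shared between families, and 8 seeds were carried by more than 1 sequence. In 20 of the 25 families with at least 10 reads, a single sequence held at least 90% of the family's reads.

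The small RNA table held 2414776 reads in mature miRNAs, 2.34% of the 102985832 mapped reads that its counts and RPM values imply, and RPM is the count scaled to these mapped reads. A sequence without a read may then stand at up to 0.0291 RPM, the worth of 3 reads. The RNA-seq libraries held 8626824 to 10328582 counts in P3 and 24753974 to 30327603 in the CZ. Precursor rows took 0.421% and 0.393% of the counts in *dcl1-2* P3, against 0.123% and 0.111% in wild-type P3. In the CZ they took 0.0635% and 0.0746% in *dcl1-2*, against 0.0345% and 0.0393% in wild type. The captured tissues carried their markers. The meristem KNOX gene *kn1* (GRMZM2G017087) was at 2.07 to 5.13 RPM in P3 and 970 to 1215 RPM in the CZ, and the leaf gene *yab9* (GRMZM2G074543) at 106 to 159 RPM in P3 and 2.46 to 3.57 RPM in the CZ. A second leaf gene, *yab14* (GRMZM2G005353), was at 121 to 200 RPM in P3. In the CZ it was at 3.56 and 10.2 RPM in *dcl1-2* and at 5.34 and 29.3 RPM in wild type. The leaf gene *yab5* (GRMZM2G116646) was at 10.3 to 20.4 RPM in P3. In the CZ it was at 0 and 0.079 RPM in *dcl1-2* and at 3.40 and 0 RPM in wild type. These leaf markers were thus uneven among the CZ libraries, and the bearing of this on the CZ comparisons was not tested. Of the 141 precursor rows, 80 had no count in any library and 58 overlapped an annotated gene model, 10 of them with the same count as that model in every library. For these 10 the reads of the precursor and of the gene model cannot be told apart. P3 libraries were sequenced paired-end and CZ libraries single-end, so tissue and read layout cannot be told apart either.

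Mature reads were concentrated in miR166, which represses HD-ZIP III genes. The family held 2300104 reads, or 95.3% of all mature miRNA reads (95% Wilson interval 95.2 to 95.3%, counting error only), which is 22334 RPM. Its 3 sequences share 1 seed. The first of the 3 printed above had 2139473 reads, 93.0% of the family, that of miR166j,k,n had 95315 and that of miR166l,m had 65316. The sequence of miR166j,k,n differs from the first at 2 positions and that of miR166l,m at 1 position, none of them in the seed.

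The other families held 114672 reads together. miR319, which acts on TCP genes, had 56065 reads (544 RPM), and miR159, a regulator of GAMYB-type MYB genes, had 21183 (206 RPM). miR168, which targets *AGO1* itself, had 16635 reads (162 RPM), and miR167, which acts on auxin response factor genes, had 8262 (80.2 RPM). These 5 families lie apart from the rest. The next group ran from 2003 to 1099 reads. It comprised miR171, which represses GRAS genes of the HAIRY MERISTEM type, with 2003 reads, miR160, a further regulator of auxin response factors, with 1941, miR390, which triggers production of the *TAS3* small RNAs, with 1936, miR394, which targets an F-box gene, with 1747, miR162, which targets *DCL1*, with 1113, and miR827, a miRNA of phosphate homeostasis, with 1099. Below these, miR396 (growth-regulating factor genes) had 664 reads, miR529 459, miR398 371, miR399 224, miR156 (SPL genes) 204, miR164 (NAC genes) 161, miR172 (AP2 genes) 141, miR2118 125, miR169 (NF-YA genes) 73, miR408 70, miR2275 61, miR393 (auxin receptor genes) 55, miR528 38, miR397 34 and miR1432 8. For miR395 and miR482 no read was counted, at the same limit. These are values of 1 library, so no replicate error can be given for any mature level.

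**Figure D1:**
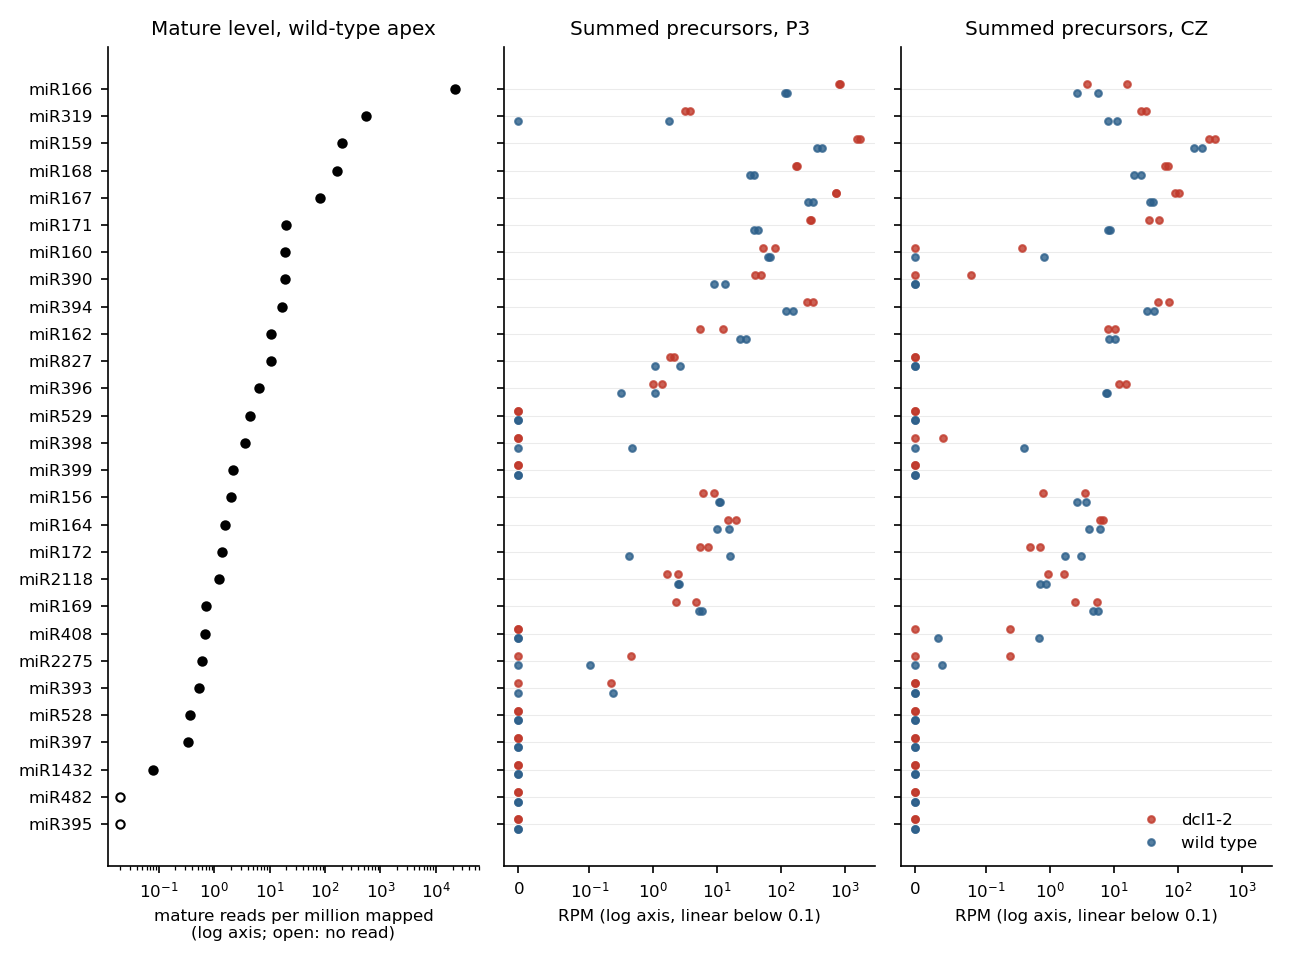
Levels of the 28 miRNA families, ordered by mature reads. The left panel gives mature RPM in the wild-type apex on a log axis, and the other panels give the RPM of summed precursors in P3 and in the CZ (log axis, linear below 0.1), with 1 point per library for *dcl1-2* (red) and wild type (blue). miR166 stands at 22334 mature RPM but has wild-type CZ precursor levels of 5.74 and 2.63 RPM, below those of miR159 at 180 and 242 RPM.

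The first question was whether a family with more mature reads also had more precursor transcript in wild type. It did so loosely. Over the 28 families, Spearman's rho between mature RPM and mean wild-type precursor RPM was 0.777 in P3 and 0.675 in the CZ. Per kilobase of precursor model, introns included, it was 0.764 and 0.643. These are descriptions over families. All points of a tissue share the same small RNA library and the same 2 RNA-seq libraries, and many families sit together at no count in both tables. Among the families with a wild-type precursor count rho was 0.671 in P3 (20 families) and 0.668 in the CZ (18 families). Among those with enough counts for the test of *dcl1-2* described below it was 0.542 in P3 (17 families) and 0.613 in the CZ (14 families). Without the 58 precursors that overlap a gene model, rho over the 28 families was 0.504 in P3 and 0.441 in the CZ. Here miR159, miR162 and miR394 stayed in at 0 RPM, and miR167 fell from 290 to 3.03 RPM in wild-type P3. This rho therefore cannot separate reads of gene models from the loss of whole families. The order of the families' own wild-type precursor levels in P3 and in the CZ had a rho of 0.79.

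**Figure D2:**
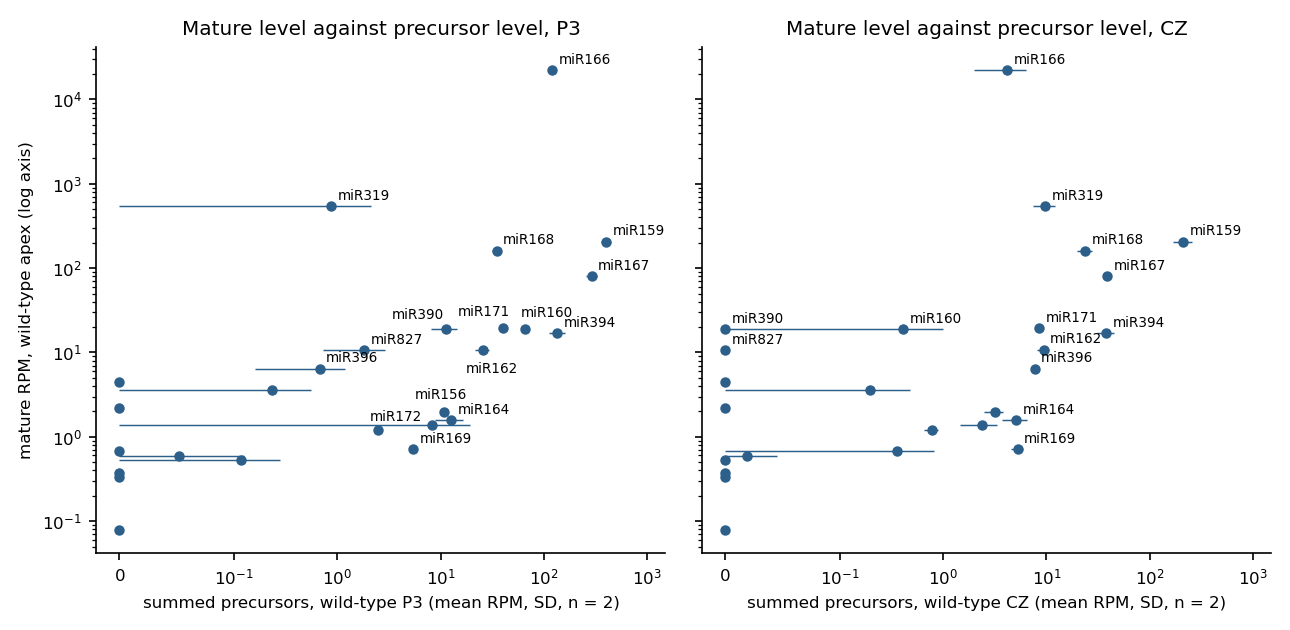
Mature RPM in the wild-type apex (log axis) against the mean RPM of summed precursors in wild-type P3 and wild-type CZ (log axis, linear below 0.1). Each point is a family with at least 1 mature read, and bars are the SD of 2 libraries, drawn down to 0 where the SD exceeds the mean. miR166 and miR319 lie above the other families at like precursor levels, at 22334 and 544 mature RPM.

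The most abundant mature family was not the one with the most precursor. miR159 precursors had the highest level per kilobase of model in both tissues, with a mean of 236 RPM per kb in wild-type P3 and 137 RPM per kb in the wild-type CZ. miR166 precursors were at 48.6 RPM per kb in P3 and 1.86 RPM per kb in the CZ. miR319, the second most abundant mature family, had 0.576 RPM per kb of precursor in P3 and 7.06 RPM per kb in the CZ. Its wild-type RPM values were 0 and 1.74 in P3 and 11.4 and 8.04 in the CZ, so the tissues did not overlap. miR160 showed the other order, with 67.2 and 63.2 RPM in wild-type P3 and 0.824 and 0 RPM in the wild-type CZ. miR390 precursors were at 13.3 and 8.93 RPM in wild-type P3 and had no count in the wild-type CZ, although the family had 1936 mature reads in the apex.

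The lower families did not keep the precursor order either. miR169 precursors were at 5.89 RPM per kb in wild-type P3 and 6.92 RPM per kb in the wild-type CZ with 73 mature reads, while miR827 precursors were at 1.71 RPM per kb in P3 and had no count in the CZ with 1099 mature reads. miR396 precursors were at 0.752 RPM per kb in P3 and 8.70 RPM per kb in the CZ. For 7 families no precursor count was found in any of the 8 libraries. Of these, miR529 (459 mature reads), miR399 (224), miR528 (38) and miR397 (34) had at least 10 mature reads, miR1432 had 8 and miR395 and miR482 had none. In the libraries of the CZ and P3 a count of 0 allows up to 0.0989 to 0.348 RPM. Precursors in cells of the apex outside the CZ and P3 are not covered by these libraries.

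Within families the sequences did not always rank as their precursors did. The sequence of miR172e had 87 reads, and its precursor was at 0.155 RPM in wild-type P3 and 0.0165 RPM in the wild-type CZ. That of miR172a,b,c,d had 54 reads, and its precursors were at 8.11 RPM in P3 and 2.38 RPM in the CZ. The P3 mean rests on 1 library, since MIR172c had 1 and 138 counts in wild-type P3 replicates 1 and 2, and MIR172e 3 and 0 counts, so their order is turned round in replicate 1. The 2 sequences differ only in their first base. In the miR156 family the sequence of miR156a,b,c,d,e,f,g,h,i,l had 193 reads and precursors at 0.927 RPM in P3 and 0.188 RPM in the CZ, while the sequence of miR156k had 11 reads and a precursor at 9.71 RPM in P3 and 2.91 RPM in the CZ. The miR156k precursor shares all its counts with a gene model, GRMZM5G895840. The sequence of miR171h,k had 150 reads against 1852 for miR171d,e,i,j, and its precursors had no count in wild type. Offset by 4 bases, these 2 sequences overlap over 17 bases and differ at 2 of them. The miR396 sequences with 586 and 55 reads have different seeds but are only 2 single-base edits apart when gaps are allowed. Over the 76 distinct sequences, rho between mature reads and the sum of the precursors that carry the sequence was 0.656 in P3 and 0.512 in the CZ. Here 9 precursor models, MIR166k among them, are listed for more than 1 sequence and count under each, and reads of a shared sequence cannot be assigned to 1 precursor.

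The second question was which families changed in *dcl1-2*. The test, edgeR's quasi-likelihood test with Benjamini-Hochberg adjustment over all rows whose mean reached 1 RPM in either genotype, took in 17 families in P3 and 14 in the CZ. In P3, 8 of the 17 passed at an adjusted p under 0.05, 7 higher and 1 lower in *dcl1-2*. Of all 22482 rows tested in P3, 4.45% passed, 3.3% higher and 1.15% lower. In the CZ 4 of the 14 families passed, all higher, against 0.282% of the 19886 rows tested, 0.111% higher. In bulk tissue, a change in the number of cells that express a precursor and a change of its level per cell cannot be told apart.

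miR166 precursors had 828 and 813 RPM in *dcl1-2* P3, against 117 and 123 RPM in wild-type P3, which do not overlap. Their log2 fold change was 2.84 ± 0.13 (SE, edgeR adjusted p = 5.05e-09). Without precursors that overlap a gene model it was 1.55 (edgeR adjusted p = 0.0125). In the CZ they had 3.88 and 16.1 RPM in *dcl1-2*, against 5.74 and 2.63 RPM in wild type. Here 1 *dcl1-2* library lies between the wild-type ones and the other above both, and the log2 fold change of 1.22 ± 0.57 did not pass (95% interval -0.03 to 2.48, edgeR adjusted p = 0.488). The family with nearly all mature reads thus passed the test in P3 only. The difference of its responses, P3 minus CZ, was 1.64 ± 0.60 and did not pass (edgeR adjusted p = 0.196).

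miR171 precursors had 283 and 290 RPM in *dcl1-2* P3, against 37.8 and 43.0 RPM in wild-type P3, and 51.9 and 35.1 RPM in the *dcl1-2* CZ, against 8.70 and 8.26 RPM in the wild-type CZ. Every *dcl1-2* library lay above every wild-type library of its tissue. The log2 fold changes were 2.90 ± 0.14 in P3 (edgeR adjusted p = 1.17e-08) and 2.33 ± 0.24 in the CZ (edgeR adjusted p = 0.00361). Among the families tested these are the largest estimates of both tissues, in P3 within the SE of that of miR166.

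miR168 precursors were at 177 and 169 RPM in *dcl1-2* P3, against 32.5 and 37.4 RPM in wild-type P3, and at 63.1 and 69.6 RPM in the *dcl1-2* CZ, against 20.8 and 26.6 RPM in the wild-type CZ. They rose in P3 by 2.38 ± 0.15 on the log2 scale (edgeR adjusted p = 1.39e-07) and in the CZ by 1.45 ± 0.18 (edgeR adjusted p = 0.00928). miR167 precursors were at 735 and 715 RPM in *dcl1-2* P3, against 317 and 263 RPM in wild-type P3, and at 90.7 and 104 RPM in the *dcl1-2* CZ, against 40.7 and 37.1 RPM in the wild-type CZ. Their log2 fold changes were 1.39 ± 0.14 in P3 (edgeR adjusted p = 1.75e-05) and 1.295 ± 0.152 in the CZ (edgeR adjusted p = 0.00548). The miR167 increase rests on precursors that overlap gene models. Without such precursors miR167 kept a mean of 1.77 RPM in *dcl1-2* P3 and 3.03 RPM in wild-type P3. In the CZ it kept 3.43 RPM in *dcl1-2* and 2.76 RPM in wild type. The change of this small remainder was -0.71 in P3 (edgeR adjusted p = 0.614) and 0.28 in the CZ (edgeR adjusted p = 0.9005). Of the other families that passed in a tissue, miR159, miR162, miR171 and miR394 could not be tested without precursors that overlap a gene model. miR159, miR162 and miR394 then had no count in any group, and miR171 had a mean of at most 0.548 RPM.

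miR159 precursors had 1695 and 1544 RPM in *dcl1-2* P3, against 434 and 368 RPM in wild-type P3, a log2 fold change of 2.08 ± 0.13 (edgeR adjusted p = 1.87e-07). In the CZ they had 312 and 379 RPM in *dcl1-2*, against 180 and 242 RPM in wild type. Those groups do not overlap, but the change of 0.68 ± 0.17 did not pass (edgeR adjusted p = 0.140). Of the 17 families, only miR159 passed the test of the difference between the responses, P3 minus CZ, at 1.41 ± 0.23 on the log2 scale (edgeR adjusted p = 0.0091). Of all 23494 rows tested for this difference, 2.37% passed, 2.04% with the higher response in P3. Of these calls 86.2% were higher in P3, or 75.9% when libraries were scaled by column totals alone. The call was lost without *dcl1-2* P3 replicate 2 (edgeR adjusted p = 0.0530).

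miR319 precursors were at 26.9 and 31.5 RPM in the *dcl1-2* CZ, against 11.4 and 8.04 RPM in the wild-type CZ, and rose by 1.56 ± 0.24 (edgeR adjusted p = 0.0290). This call was lost without *dcl1-2* CZ replicate 2 (edgeR adjusted p = 0.0684). In P3 they were at 3.08 and 3.78 RPM in *dcl1-2*, against 0 and 1.74 RPM in wild type. A change of 2.09 ± 0.94 there did not pass (edgeR adjusted p = 0.259). So the second most abundant mature family had few precursor counts in P3 and passed only in the CZ, and its difference between the tissues did not pass.

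miR390 and miR394 passed in P3. miR390 precursors had 48.4 and 38.8 RPM in *dcl1-2* P3, against 13.3 and 8.93 RPM in wild-type P3, a log2 fold change of 2.02 ± 0.24 (edgeR adjusted p = 0.000134). They were too low for the test in the CZ. miR394 precursors had 319 and 253 RPM in *dcl1-2* P3, against 151 and 118 RPM in wild-type P3, a log2 fold change of 1.15 ± 0.16 (edgeR adjusted p = 0.000507). In the CZ they had 48.6 and 72.4 RPM in *dcl1-2*, against 42.7 and 33.2 RPM in wild type, which did not pass (log2 fold change 0.64, edgeR adjusted p = 0.260).

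miR162 went the other way. Its precursor had 5.28 and 12.1 RPM in *dcl1-2* P3, against 22.7 and 28.2 RPM in wild-type P3, and fell by 1.46 on the log2 scale (SE 0.33, edgeR adjusted p = 0.0186). The call was lost without *dcl1-2* P3 replicate 1 (edgeR adjusted p = 0.0806) and without wild-type P3 replicate 2 (edgeR adjusted p = 0.0595). In the CZ the 10.6 and 8.08 RPM of *dcl1-2* and the 8.47 and 10.3 RPM of wild type overlapped (log2 fold change -0.04, edgeR adjusted p = 0.981). The miR162 precursor has the same count as the overlapping gene model GRMZM2G482946 in every library.

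The other families did not pass. miR160 precursors were abundant in P3, with 79.9 and 51.9 RPM in *dcl1-2*, against 67.2 and 63.2 RPM in wild type. Their log2 fold change of 0.08 ± 0.19 has a 95% interval of -0.32 to 0.48. The values of miR156 (9.03 and 6.003 RPM in *dcl1-2* P3, against 11.1 and 10.5 RPM in wild-type P3) and of miR169 (4.62 and 2.23 RPM, against 5.69 and 5.10 RPM) were lower in both *dcl1-2* libraries but did not pass, with log2 fold changes of -0.46 and -0.60. miR172 precursors had 5.28 and 7.16 RPM in *dcl1-2* P3, against 0.414 and 16.1 RPM in wild-type P3, so the wild-type libraries bracket the mutant ones. In the CZ they had 0.485 and 0.713 RPM in *dcl1-2*, against 3.07 and 1.73 RPM in wild type, with a log2 fold change of -2.02 ± 0.68 (edgeR adjusted p = 0.285). miR396 precursors had 11.998 and 15.7 RPM in the *dcl1-2* CZ, against 7.91 and 7.47 RPM in the wild-type CZ, with a log2 fold change of 0.82 (edgeR adjusted p = 0.285). miR396 and miR827 precursors were close to the limit of the test in P3, with 0.991 and 1.36 RPM in *dcl1-2*, against 0.310 and 1.04 RPM in wild type, and with 2.09 and 1.84 RPM in *dcl1-2*, against 2.59 and 1.04 RPM in wild type. For miR164 the log2 fold changes were 0.52 in P3 and 0.29 in the CZ, and for miR2118 they were -0.21 and 0.71. Over all tested families, both *dcl1-2* libraries lay above both wild-type libraries for 8 of 17 in P3 and 8 of 14 in the CZ. For all rows tested this share was 20.8% in P3 and 22.7% in the CZ. Both lay below for 4 of 17 in P3 (all rows 29.2%) and 1 of 14 in the CZ (all rows 18.1%).

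The third comparison set the mature level against the response. Over the families tested, rho between wild-type mature RPM and the *dcl1-2* over wild-type ratio of precursor RPM was 0.804 in P3 (17 families) and 0.684 in the CZ (14 families). In the same families, rho between mature and wild-type precursor RPM was 0.542 in P3 and 0.613 in the CZ, and rho between wild-type precursor RPM and the ratio was 0.409 in P3 and 0.429 in the CZ. In these families the coefficient of the mature level was thus higher with the ratio than with the precursor level. The gap between the coefficients was not tested. The filter bears on it, since a family under 1 RPM in wild type entered only if it was higher in *dcl1-2*. By mean RPM, miR319 and miR396 in P3 and miR2118 in the CZ entered in this way. In the CZ, miR172 entered through wild type alone. The gap therefore cannot show whether the mature order follows the responses more closely than the precursor levels. The precursor level and the ratio use the same wild-type counts. The response coefficient moved with single libraries. It was 0.474 in P3 without wild-type P3 replicate 2 (16 families) and 0.411 in the CZ without *dcl1-2* CZ replicate 2 (14 families). Without miR319, an alternative chosen after the data were seen, it was 0.788 in P3 and 0.648 in the CZ. The coefficient with precursor level was not computed without miR319. Among the 28 families miR319 ranked 2 by mature reads but 16 by wild-type P3 precursor RPM, which lowers that coefficient. The gap in P3 thus rests in large part on this family. The ratios in P3 and in the CZ, which share no library, had a rho of 0.833 over 14 families.

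**Figure D3:**
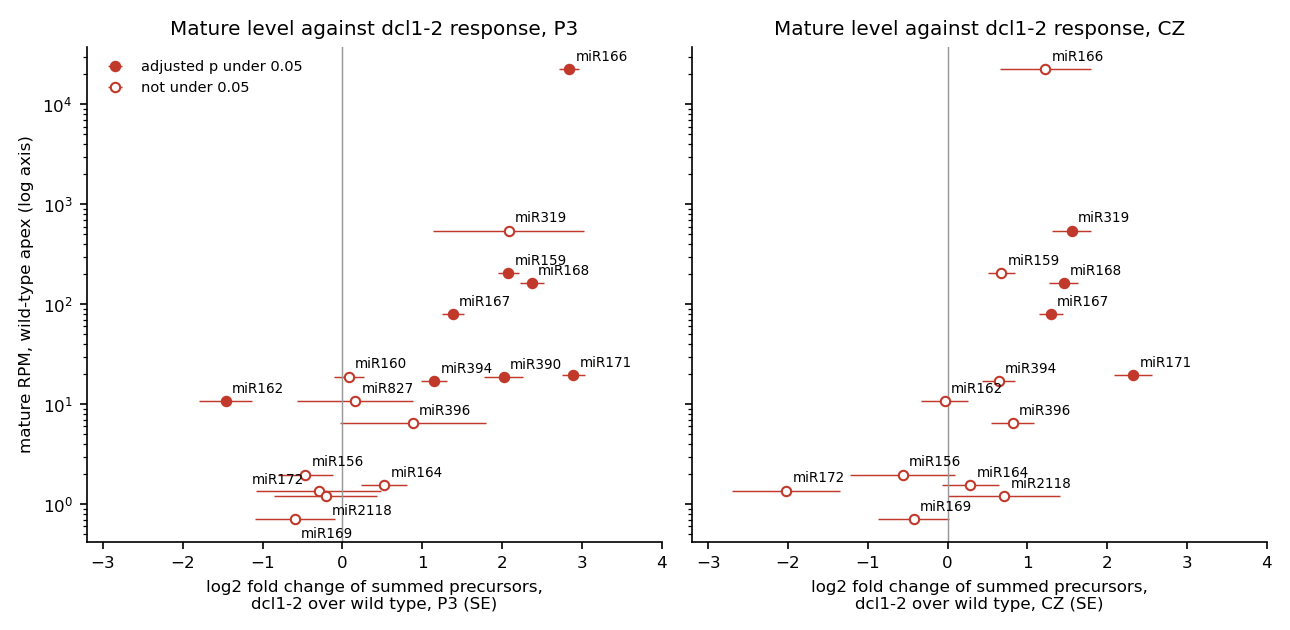
Mature RPM in the wild-type apex (log axis) against the log2 fold change of summed precursors, *dcl1-2* over wild type, in P3 and in the CZ. Each point is a family tested, bars are the SE of the edgeR fit, and filled points passed at an adjusted p under 0.05. In P3 the families that passed have 1113 to 2300104 mature reads, and miR162 at -1.46 is the only one that fell.

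By counts, the 8 families that passed in P3 had 1113 to 2300104 mature reads with a median of 5133, and the 9 that did not had 73 to 56065 with a median of 204. In the CZ the 4 that passed had 2003 to 56065 reads with a median of 12449, and the 10 that did not had 73 to 2300104 with a median of 434. Precursor level differed between these groups as well. Wild-type precursors were at 11.1 to 401 RPM in the families that passed in P3 and 0.677 to 65.2 RPM in those that did not, and at 8.48 to 38.9 RPM and 0.778 to 211 RPM in the CZ. A row with more counts also has a more precise fold change, and the part of this in the counts of families that passed was not tested.

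Single precursors were tested in a table that kept each row. In P3, 19 of 33 precursors passed, 17 higher and 2 lower in *dcl1-2*, where 4.5% of all rows passed. In the CZ 5 of 25 passed, all higher, where 0.292% of all rows passed. Most families rested on 1 precursor. The leading precursor held over 50% of the wild-type family RPM in 19 of 20 families in P3, all but miR396, and in 18 of 18 in the CZ, and 14 of those in P3 and 13 in the CZ overlap a gene model.

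In the miR166 family, MIR166d (chr5:21931671-21933890, minus strand, overlapping GRMZM2G096372) led, with 615 and 594 RPM in *dcl1-2* P3, against 56.5 and 64.0 RPM in wild-type P3 (log2 fold change 3.40 ± 0.14, edgeR adjusted p = 1.13e-09). MIR166b rose by 2.58, MIR166k by 1.59 and MIR166n by 1.39 on the log2 scale, and MIR166c, with 4.29 and 4.84 RPM in *dcl1-2* P3 against 3.93 and 1.39 RPM in wild-type P3, did not pass. MIR166b and MIR166d make the leading miR166 sequence and MIR166n the one with 95315 reads, while the MIR166k model is listed for that one and for the one with 65316 reads. In the CZ, MIR166d had 0.242 and 12.959 RPM in *dcl1-2*, against 3.86 and 1.88 RPM in wild type, so 1 *dcl1-2* library holds most of that family's CZ signal.

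The make-up of a family differed between the tissues in places. MIR159a (chr8:10392288-10394005, plus strand, with the counts of GRMZM2G374085) held 94.0% of wild-type family RPM in P3 and 49.6% in the CZ, where MIR159f held 50.4%. In the CZ each of the 2 led in 1 wild-type library, with 86.2 and 127 RPM of MIR159f beside 93.6 and 116 RPM of MIR159a. MIR159a had 1619 and 1480 RPM in *dcl1-2* P3, against 403 and 350.3 RPM in wild-type P3, and 166.1 and 175.6 RPM in the *dcl1-2* CZ, against 93.6 and 116 RPM in the wild-type CZ. It rose in P3 by 2.104 and MIR159f by 1.60, and neither passed in the CZ. MIR171d held 71.5% of wild-type miR171 RPM in P3 and MIR171e 83.1% in the CZ. MIR171e had 150 and 154 RPM in *dcl1-2* P3, against 7.76 and 14.1 RPM in wild-type P3, and 47.8 and 30.0 RPM in the *dcl1-2* CZ, against 6.89 and 7.21 RPM in the wild-type CZ. Its log2 fold changes were 3.88 ± 0.21 in P3 and 2.43 ± 0.26 in the CZ. MIR171e (chr1:7954673-7955963) lies 3.34 Mb from *DCL1* (chr1:4607185-4614592), so alleles of the mutant's donor near *DCL1* and the loss of DCL1 function cannot be told apart for it. MIR171d, on chromosome 9, rose by 2.28 in P3. Its change of 2.16 ± 0.53 in the CZ did not pass (edgeR adjusted p = 0.142), so the miR171 call there rests mainly on MIR171e.

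**Figure D4:**
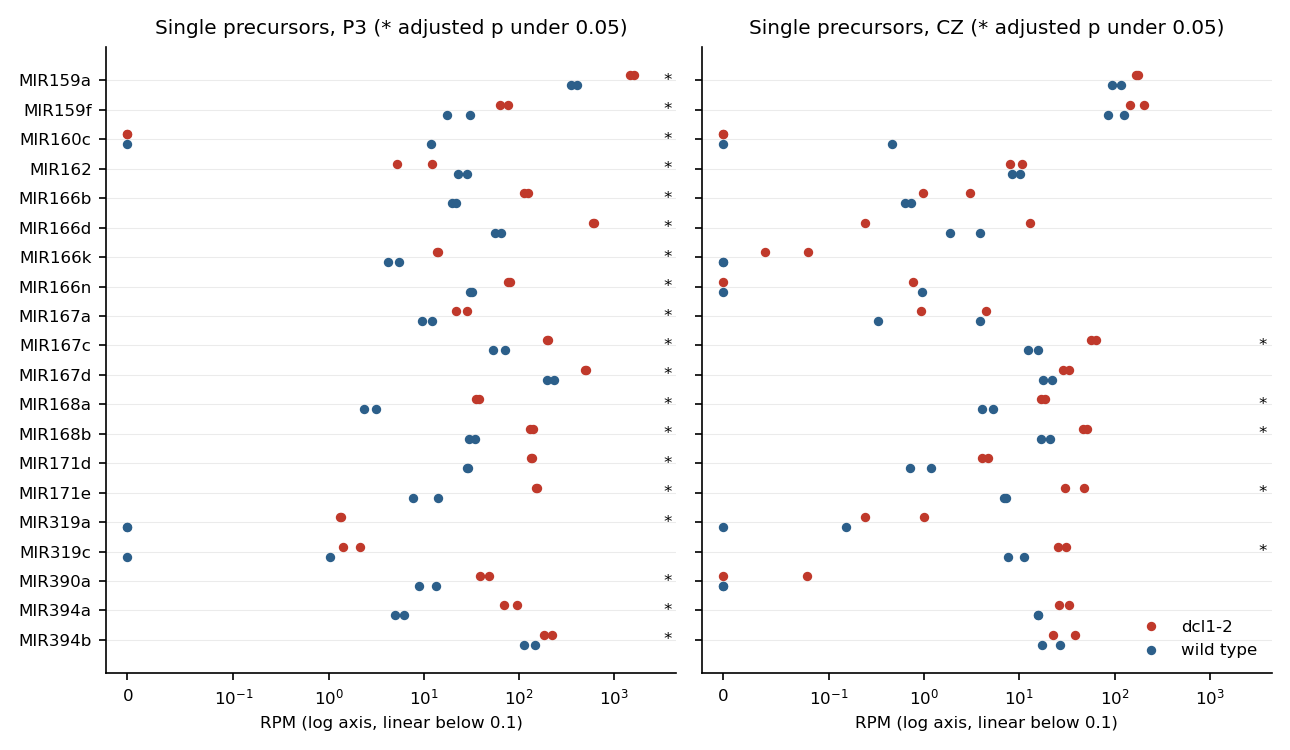
RPM of the 20 single precursors that passed in P3 or in the CZ (log axis, linear below 0.1), with 1 point per library for *dcl1-2* (red, upper) and wild type (blue, lower); a star marks an edgeR adjusted p under 0.05. MIR394a has 95.1 and 70.3 RPM in *dcl1-2* P3, against 4.97 and 6.14 RPM in wild-type P3, and MIR162 and MIR160c are the only ones lower in *dcl1-2*.

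Precursors of 1 sequence had unequal estimates in P3. MIR394a (chr5:193819001-193824445) had 95.1 and 70.3 RPM in *dcl1-2* P3, against 4.97 and 6.14 RPM in wild-type P3, a log2 fold change of 3.96 ± 0.22 (edgeR adjusted p = 5.59e-08). MIR394b, which makes the same mature sequence, had 224 and 183 RPM in *dcl1-2* P3, against 146 and 112 RPM in wild-type P3, a log2 fold change of 0.72 ± 0.16 (edgeR adjusted p = 0.0193) that was lost without *dcl1-2* P3 replicate 1 (edgeR adjusted p = 0.183). MIR168a and MIR168b, which share a sequence too, rose by 3.79 ± 0.28 and 2.15 ± 0.15 in P3. MIR168a had 35.0 and 37.9 RPM in *dcl1-2* P3, against 2.38 and 3.13 RPM in wild-type P3, and shares its counts with GRMZM5G899308, while MIR168b overlaps no gene model and had 142 and 131 RPM, against 30.1 and 34.3 RPM. Both MIR394 precursors overlap gene models. The differences between precursors of a family were not tested.

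In the CZ, MIR167c had 57.0 and 63.7 RPM in *dcl1-2*, against 15.9 and 12.3 RPM in wild type (log2 fold change 2.07 ± 0.19), MIR168a rose by 1.89, MIR168b by 1.32 and MIR319c (chr8:148276537-148277915, no gene model) by 1.56. Without *dcl1-2* CZ replicate 2 the calls of MIR168a, MIR168b and MIR319c were lost (edgeR adjusted p = 0.0573, 0.0573 and 0.0831), and 2 of 26 precursors passed. Also in P3, MIR167a, MIR167c and MIR167d rose by 1.27, 1.73 and 1.29, and MIR390a by 2.02. MIR319a had 1.32 and 1.36 RPM in *dcl1-2* P3 and no count in wild-type P3, at least 8.16-fold higher against a floor of 3 counts over the group. That call was lost when any 1 of the 4 P3 libraries was left out (edgeR adjusted p = 0.0501 to 0.104). MIR160c had no count in *dcl1-2* P3, against 0 and 11.8 RPM in wild-type P3, so its call rests on 1 wild-type library. The MIR167a call was lost without *dcl1-2* P3 replicate 2 (edgeR adjusted p = 0.113).

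The response in P3 differed from that in the CZ for 3 of 35 single precursors, where 2.36% of all rows passed. MIR394a differed by 3.09 ± 0.31 on the log2 scale (edgeR adjusted p = 0.000657), MIR159a by 1.44 ± 0.20 (edgeR adjusted p = 0.00347) and MIR168a by 1.92 ± 0.39 (edgeR adjusted p = 0.0246), each with the larger increase in P3. MIR394a had 26.1 and 33.5 RPM in the *dcl1-2* CZ, against 15.8 and 15.8 RPM in the wild-type CZ, which did not pass. The MIR168a difference was lost when any P3 library or either *dcl1-2* CZ library was left out (edgeR adjusted p = 0.0659 to 0.131).

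The targets of the families are a further readout of the same libraries. The target list used here, taken from the study's supplement, has 153 distinct genes of 22 families. In P3, 21 of the 111 tested were higher in *dcl1-2* and none was lower, where 3.3% of all rows were higher. The unadjusted edgeR p was under 0.05 for 44 of the 111 in either direction, and for 4020 of all 22482 rows. In the CZ 1 of 96 passed, where 0.282% of all rows passed. There 27 of the 96 had an unadjusted edgeR p under 0.05, as did 2095 of all 19886 rows. The median log2 fold change of the targets tested was 0.26 in P3 and 0.02 in the CZ, beside -0.02 and -0.00 over all rows.

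Targets of the most abundant family rose in P3. Of 8 miR166 targets tested 4 passed, all HD-ZIP III genes related to *PHABULOSA* or *REVOLUTA* of Arabidopsis, and 0 of 7 did in the CZ. GRMZM2G178102 had 331 and 271 RPM in *dcl1-2* P3, against 105 and 101 RPM in wild-type P3 (log2 fold change 1.61 ± 0.14, edgeR adjusted p = 5.38e-06), and 199 and 307 RPM in the *dcl1-2* CZ, against 310 and 267 RPM in the wild-type CZ. GRMZM2G003509 had 103.7 and 102.7 RPM in *dcl1-2* P3, against 53.0 and 48.3 RPM in wild-type P3. GRMZM2G042250 had 120 and 108 RPM, against 62.4 and 75.2 RPM, and GRMZM2G469551 had 88.4 and 89.2 RPM, against 48.6 and 43.4 RPM. The call of GRMZM2G042250 was lost without *dcl1-2* P3 replicate 1 (edgeR adjusted p = 0.0519).

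Targets of other families passed as well. Of miR390, 3 of 7 passed in P3, the *tas3* transcripts GRMZM2G512113, GRMZM2G178686 and GRMZM2G124744, the last lost without *dcl1-2* P3 replicate 1 (edgeR adjusted p = 0.0779). GRMZM2G512113 had 313 and 293 RPM in *dcl1-2* P3, against 98.2 and 90.8 RPM in wild-type P3 (log2 fold change 1.74 ± 0.14, edgeR adjusted p = 1.28e-06). Of miR169 targets, which encode NF-YA subunits, 4 of 9 passed in P3, and GRMZM5G853836 passed in both tissues. The other 3 calls were each lost without either of 2 libraries, at edgeR adjusted p up to 0.164 for GRMZM2G000686 (either *dcl1-2* P3 library), 0.545 for GRMZM2G165488 (replicate 2 of *dcl1-2* or of wild type) and 0.0844 for GRMZM5G829103 (replicate 1 of *dcl1-2* or of wild type). GRMZM5G853836 had 41.4 and 35.5 RPM in *dcl1-2* P3, against 15.2 and 19.2 RPM in wild-type P3, and 75.3 and 77.4 RPM in the *dcl1-2* CZ, against 20.3 and 25.6 RPM in the wild-type CZ (log2 fold changes 1.23 ± 0.21 and 1.70 ± 0.18, edgeR adjusted p = 0.00267 and 0.00361). Of miR156, 3 of 16 passed in P3, the SPL genes *sbp29* (GRMZM2G067624), *sbp27* (GRMZM2G097275) and *ub3* (GRMZM2G460544). The *ub3* call was lost without either *dcl1-2* P3 library (edgeR adjusted p = 0.162 and 0.170). Of miR396, 3 of 16 growth-regulating factor genes passed, GRMZM2G067743, GRMZM2G119359 and GRMZM2G124566, which had 12.1 and 48.5 RPM in *dcl1-2* P3, against 2.59 and 2.67 RPM in wild-type P3. The GRMZM2G119359 call was lost without *dcl1-2* P3 replicate 2 (edgeR adjusted p = 0.0649). Of miR160 1 of 6 passed, GRMZM2G081406, a call lost without *dcl1-2* P3 replicate 2 or either wild-type P3 library (edgeR adjusted p up to 0.504), and of miR162 1 of 1, *DCL1*. Of miR164 2 of 3 NAC genes passed, GRMZM2G139700 and GRMZM2G393433. GRMZM2G393433 had 26.1 and 33.6 RPM in *dcl1-2* P3, against 10.04 and 9.969 RPM in wild-type P3 (log2 fold change 1.64 ± 0.25, edgeR adjusted p = 0.000929). For miR159 0 of 7, miR167 0 of 7, miR168 0 of 4, miR171 0 of 6, miR319 0 of 7 and miR394 0 of 2 targets passed in P3, at median log2 fold changes of 0.23, -0.04, 0.18, 0.46, 0.25 and -0.57. The miR159 and miR319 sets share GRMZM2G004090, GRMZM2G020805, GRMZM2G028054, GRMZM2G089361 and GRMZM2G115516, so they are not separate results.

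The test of the difference between the responses, P3 minus CZ, was extended to the targets after the data were seen. It passed for 13 of 114, 12 with the higher response in P3, where 2.37% of all rows passed. The count was 2 without *dcl1-2* P3 replicate 2 and 3 without wild-type P3 replicate 2. The calls of GRMZM2G178102 (1.84 ± 0.26 on the log2 scale, edgeR adjusted p = 0.00359), an HD-ZIP III gene, and of the *tas3* transcript GRMZM2G178686 (3.46 ± 0.42, edgeR adjusted p = 0.00171) held with each library left out in turn. Such a difference can hold a fall in the CZ as well as a rise in P3. GRMZM2G178102 changed by 1.61 in P3 and -0.22 in the CZ. GRMZM2G178686 changed by 0.87 in P3 and -2.58 in the CZ. In the CZ it had 1.17 and 1.11 RPM in *dcl1-2*, against 9.04 and 4.43 RPM in wild type (edgeR adjusted p = 0.0625). GRMZM2G105335 passed in neither tissue, with 0.28 in P3 and -1.54 in the CZ. The miR394 target GRMZM2G119650 had a negative difference. It had 25.4 and 30.8 RPM in *dcl1-2* P3, against 35.1 and 55.1 RPM in wild-type P3, with log2 fold changes of -0.60 in P3 and 0.98 in the CZ, neither past the test, and a difference of -1.57 ± 0.32 (edgeR adjusted p = 0.0240). That call was lost without any 1 of 5 of the 8 libraries (edgeR adjusted p up to 0.109).

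The machinery list, 54 genes of miRNA production, action and turnover named by homology with Arabidopsis, gave 1 of 46 genes tested in P3 (4.45% of all rows) and 1 of 44 in the CZ (0.282% of all rows). *DCL1* (GRMZM2G040762), the mutated gene and the target of miR162, had 141 and 136 RPM in *dcl1-2* P3, against 73.2 and 101 RPM in wild-type P3. It rose by 0.74 ± 0.15 (edgeR adjusted p = 0.0114), a call lost without either *dcl1-2* P3 library (edgeR adjusted p = 0.05002 and 0.05204). In the CZ it had 84.0 and 91.7 RPM in *dcl1-2*, against 65.4 and 62.2 RPM in wild type, which do not overlap but did not pass (log2 fold change 0.43 ± 0.14, edgeR adjusted p = 0.273). The *AGO10* gene AC189879.3_FG003 did not pass in the CZ (log2 fold change 0.15, edgeR adjusted p = 0.877). It had 47.3 and 70.6 RPM in *dcl1-2*, against 61.7 and 42.5 RPM in wild type. In the CZ another *AGO10* gene (GRMZM2G079080), whose Arabidopsis counterpart binds miR166, had 20.3 and 23.6 RPM in *dcl1-2*, against 44.7 and 49.1 RPM in wild type. GRMZM2G079080 fell by 1.128 on the log2 scale (edgeR adjusted p = 0.0343). That call was lost without either *dcl1-2* CZ library (edgeR adjusted p = 0.1004 and 0.0553).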

How the data were processed

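Per the labels and methods, RNA-seq reads were trimmed (Trimmomatic) and mapped to B73 RefGen_v3 (TopHat), and the authors deposited HTSeq counts of unique reads over genes and curated precursor models. The amplification kit differs between labels and methods. For small RNAs (cutadapt 1.13, Bowtie 1.1.2) the authors deposited counts and RPM per mature miRNA. Precursor RPM was computed here as count over column total, with 1 blank count cell and 2 blank mature cells read as 0. The deposited RPM columns of the RNA-seq table served only as an alternative.

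Family sums entered the whole table and were tested with edgeR 4.0.16 (R 4.3.3) after TMM, with 1 model per tissue and rows of at least 1 RPM on average in a genotype. The difference between tissues used all 8 libraries. DESeq2 1.42.0 was an alternative. An SE is the size of the log2 fold change over the square root of F. The fits were tested on simulated data. How amplified polyadenylated RNA covers a precursor model was not tested, which limits RPM per kb.

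By rule, all families, the leading sequences and precursors, and list members that passed were to be named; of the leading ones, the text gives those that the results turn on. Members and lists were chosen with earlier results of these data known. The target and machinery lists are the study's. Coordinates are those of the count table, and symbols come from RefSeq's Zm-B73-REFERENCE-NAM-5.0 table, used for names only. The study calls the 2 libraries of a group biological replicates.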

Additional observations from a re-analysis of the deposited data

Results flagged for a closer look

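The response to *dcl1-2* differed between P3 and the CZ, by edgeR's test of the difference, for the miR159 family (P3 minus CZ response 1.41 on the log2 scale, adjusted p = 0.0091) and for 3 single precursors, MIR394a (3.09, adjusted p = 0.000657), MIR159a (1.44, adjusted p = 0.00347) and MIR168a (1.92, adjusted p = 0.0246). In these 4, each *dcl1-2* library lay above each wild-type library in both tissues. The same test, extended to the lists after the data were seen, flagged 13 of 114 target genes and 1 of 46 machinery genes. Of all rows tested, 2.37% passed, so the machinery count is near that share. A positive difference can hold a fall in the CZ, as for GRMZM2G178686 (-2.58 in the CZ) and GRMZM2G079080 (-1.13 in the CZ). Responses (log2, P3 minus CZ) were 1.32 for GRMZM2G003509, 0.99 for GRMZM2G042250, 1.84 for GRMZM2G178102 and 0.99 for GRMZM2G469551 (miR166), 2.36 for GRMZM2G124744 and 3.46 for GRMZM2G178686 (miR390), 1.27 for GRMZM2G067743, 1.83 for GRMZM2G105335 and 3.69 for GRMZM2G124566 (miR396), 1.86 for GRMZM2G067624 (miR156), 1.76 for GRMZM2G081406 (miR160), 1.45 for GRMZM2G393433 (miR164), -1.57 for GRMZM2G119650 (miR394) and 0.97 for the *AGO10* gene GRMZM2G079080. Of these 14, 2 kept their call with each library left out in turn, GRMZM2G178102 and GRMZM2G178686. P3 and CZ libraries also differ in read layout, which cannot be told apart from tissue.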

How the results depend on the processing

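The rho of mature and precursor level was 0.504 in P3 and 0.441 in the CZ without precursors that overlap a gene model. Families left without a precursor counted as 0 RPM there. The rho was 0.656 and 0.512 over distinct sequences, and 0.72 in P3 over families with at least 10 mature reads. Leaving out 1 library gave 0.708 to 0.777 in P3 and 0.596 to 0.711 in the CZ, and for the rho with the ratio 0.474 to 0.799 in P3 and 0.411 to 0.789 in the CZ. With repeated entries counted, miR166 held 97.379% of reads. Families that passed, 8 in P3 and 4 in the CZ, were 4 of 10 and 2 of 6 without overlapping precursors. There the remainder of miR167 in P3, at 3.03 RPM in wild type, had a log2 fold change of -0.707. In the CZ 7 passed with no filter on low counts. With 1 library left out they were 7 to 9 in P3 and 3 to 5 in the CZ. Fitting all 8 libraries together ended the calls of miR319 in the CZ (adjusted p = 0.174) and of miR162 in P3 (0.0631). For the difference between tissues, 1 family passed in the main test, 2 with DESeq2, 4 with no filter, 0 of 10 without overlapping precursors, 3 by single precursors and 0 to 2 with 1 library left out. Target genes in the CZ (1 in the main test) were 9 with DESeq2, 12 with no filter and 1 to 9 with 1 library left out; in P3 (21) they were 16 to 28. For the difference, targets (13) were 21 with no filter and 2 to 14 with 1 library left out. Machinery genes with 1 library left out were 0 to 5 in P3, 0 to 1 in the CZ and 0 for the difference (1 in the main test). Alternatives for single precursors were chosen after the data were seen. They gave 8 calls in the CZ with DESeq2 and 2 to 7 with 1 library left out, 16 to 18 in P3, and for the difference 6 with DESeq2 and 2 to 4 with 1 library left out. DESeq2 also ended the P3 calls of MIR160c (adjusted p = 0.454) and MIR319a (0.0516). The numbers of all rows called, which give the background shares, moved by more than 1.5 times. In P3, 1000 became 1673 with no filter, 426 with all 8 libraries in 1 model, 611 when the log2 fold change also had to reach 1 in size, and 523 to 1842 with 1 library left out. In the CZ, 56 became 342 with DESeq2, 694 with no filter, 238 with all 8 libraries in 1 model and 44 to 686 with 1 library left out. For the difference, 557 became 1053 with DESeq2, 1584 with no filter and 77 to 914 with 1 library left out. Scaling by column totals moved the median log2 difference over all rows from 0.01 to -0.10. The cause of these shifts was not tested.

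Same-numbered libraries did not deviate together (correlation of deviations 0.01 in P3 and 0.07 in the CZ), so the numbers do not pair them. With a replicate block, 9 families passed in P3 and 5 in the CZ, 2 for the difference, 9 target genes in the CZ, and 5 single precursors for the difference, with 1595, 304 and 941 rows called in P3, in the CZ and for the difference. With 2 libraries a group, depth limits the low families: 3 counts are worth 0.29 to 0.348 RPM in P3 and 0.0989 to 0.121 RPM in the CZ.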
